A study of Arabidopsis thaliana with 27 samples.

Results

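The Arabidopsis circadian clock was followed through the transcripts of 10 of its central genes in dissected stamens and gynoecia collected within 1 to 3 h after dawn. The genes were LHY (AT1G01060), CCA1 (AT2G46830), PRR9 (AT2G46790), PRR7 (AT5G02810), PRR5 (AT5G24470), TOC1 (AT5G61380), LUX (AT3G46640), ELF4 (AT2G40080), ELF3 (AT2G25930) and GI (AT1G22770). They were taken by locus identifier from textbook knowledge of the clock and are 10 of the 33602 loci counted. Earlier results of these data were known at that choice, though no levels were used to pick the genes. The question asked of them was whether their spread between libraries ran with genotype or with something that differs from harvest to harvest.

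In the plant clock, the paired MYB factors LHY and CCA1 peak around dawn and repress genes that peak later in the day. The pseudo-response regulators PRR9, PRR7 and PRR5 are expressed one after another through the day and repress LHY and CCA1, and TOC1, LUX, ELF4 and ELF3 act around and after dusk, the last 3 as the evening complex. GI is a large protein that peaks in the afternoon and links the clock to flowering time and to protein turnover. Shortly after dawn LHY and CCA1 are known to be near or past their daily peak, and the evening genes to be low.

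Poly(A) RNA of 27 libraries from Columbia-background plants was sequenced with single-end 50-base reads, and every group was grown under 14 h of light and 10 h of darkness. Stamens came from stage 11 buds of 1.5 to 1.8 mm and comprised arf6arf8 (2 libraries), mARF8 (4 libraries) and wild type (3 libraries). Stage 12 flowers gave the gynoecia, which measured between 0.9 and 1.4 mm and comprised arf6arf8 (2 libraries), mARF8 (4), Pstk_axr3 (4), arf6 Pstk_axr3 (4) and wild type (4). The study addressed how auxin response and miR167 act on these organs, going by its title and design, and the clock was not named as its subject.

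The arf6arf8 plants are mutant in ARF6 and ARF8, which encode auxin response factors. The mARF8 plants carry an added genomic copy of ARF8 whose miR167 target site is mutated. Their stamen replicates 1 and 3 were line 3B, replicate 2 was line 4B and replicate 4 was a pool of T1 plants by the sample titles, although the genotype field names 4B for stamens. Their gynoecia were line 3B by the source names and genotype field, and by the titles of replicates 1 to 3; the title of replicate 4 names no line. Pstk_axr3 plants express a stabilised AXR3/IAA17 repressor from the promoter of SEEDSTICK (STK), a gene of ovules. Replicate 3 of this group was line 15-5, replicate 4 was the F1 of Columbia and a line 25-2 plant, and the titles of the others name no line. The arf6 Pstk_axr3 plants combine the arf6 mutation with that transgene, in line 15-5 for replicates 1 and 3 and line 25-2 for replicates 2 and 4. The labels do not say whether replicates were separate sets of plants, so p-values measure the spread between these libraries, which may be technical.

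Libraries held 3692975 to 15374607 counted reads, so that 3 reads amounted to 0.195 to 0.812 CPM, the count scaled to a common library total. Altered genes ran with the labels: ARF8 had 255 to 555 CPM in mARF8 stamens and 18.3 to 20.0 CPM in arf6arf8 stamens, against 51.0 to 71.7 CPM in wild type stamens. Tissue markers separated completely, with 5 stamen genes summing to 866 to 1530 CPM in stamens and 10.0 to 35.2 CPM in gynoecia. Each sample title also carries a library number, and no label gives the hour at which a library was collected. Library numbers run up to 23 in 16 libraries, here called low-numbered, and from 26 upward in 11 libraries, here called high-numbered; that division was made after seeing the data. Because tissues were bulk, fewer cells of a type and less RNA per cell cannot be told apart.

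Promoter sequence is shown first because 2 short elements known from clock genes recur in it. The G-box CACGTG is bound by light-signalling bHLH and bZIP factors, and the evening element AAAATATCT is bound by LHY and CCA1 themselves. Windows were searched on both strands, from 250 bases before to 50 after each gene start in the RefSeq annotation of TAIR10.1, and all 10 genes had a window. The evening element lay in 4 of the 10 windows, against 2.82% of 27444 windows of the same length across the genome. A G-box lay in 5 of the 10, against 7.68%. The other motifs searched were a CCA1 binding site, AAAAATCT, in 1 of the 10 against 7.88%, and a LUX binding site, GATACG or GATTCG, in 3 of the 10 against 14.5%. A match describes letters only and marks no proven site.

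The G-box of the dawn genes LHY and CCA1 and of PRR7, 3 genes to which the results return, is given in capitals within its surroundings, 5′ to 3′ on the strand of the gene. LHY is read from chr1:37921-37976 on the minus strand, CCA1 from chr2:19245373-19245428 on the plus strand and PRR7 from chr5:642201-642256 on the minus strand.
LHY: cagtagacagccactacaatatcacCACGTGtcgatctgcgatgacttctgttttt
CCA1: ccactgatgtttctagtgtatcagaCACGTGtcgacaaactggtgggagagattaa
PRR7: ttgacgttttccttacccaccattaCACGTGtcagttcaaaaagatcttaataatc

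The evening element of 4 genes that LHY and CCA1 are known to repress is given the same way, with the 9 bases of the element in capitals. It reads AGATATTTT, the reverse complement, on the strand of PRR9, PRR5 and TOC1. PRR9 is read from chr2:19232623-19232651 on the plus strand, PRR5 from chr5:8358700-8358758 on the minus strand, TOC1 from chr5:24674787-24674845 on the plus strand and LUX from chr3:17182964-17183022 on the plus strand. The element of PRR9 begins 27 bases after the annotated gene start, within the first transcribed bases. Those of PRR5, TOC1 and LUX begin 187, 151 and 53 bases before it.
PRR9: ttctctgagaAGATATTTTcgtggttgtg
PRR5: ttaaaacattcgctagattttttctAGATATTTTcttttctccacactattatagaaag
TOC1: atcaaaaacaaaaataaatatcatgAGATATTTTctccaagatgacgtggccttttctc
LUX: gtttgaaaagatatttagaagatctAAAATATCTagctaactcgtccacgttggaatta

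The dawn genes were the most abundant of the 10 in both organs. Compared per exon length, as CPM per kilobase of exon (RPKM), CCA1 in wild type stamens averaged 48.9 ± 7.08 RPKM and LHY 40.5 ± 12.2 RPKM (SD, n = 3), which overlapped. LUX came next at 16.5 ± 1.90 RPKM, level with PRR7 at 15.7 ± 2.84 RPKM. GI (6.43 ± 1.41), ELF3 (5.78 ± 0.465), ELF4 (5.04 ± 0.750) and PRR9 (4.89 ± 1.37) formed an overlapping run, with TOC1 (2.02 ± 0.280) and PRR5 (1.54 ± 0.934 RPKM) last.

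In wild type gynoecia LHY averaged 154 ± 85.7 RPKM and CCA1 70.6 ± 45.9 RPKM (SD, n = 4). Their ranges overlapped, so the order of the pair is not beyond their spread. PRR7 at 36.6 ± 8.11 RPKM overlapped CCA1 but not LHY, and ELF3 (16.6 ± 3.26) and TOC1 (16.0 ± 1.06) stood together below it. GI (9.36 ± 1.84) and PRR9 (8.80 ± 1.85) overlapped each other, LUX at 2.40 ± 0.468 overlapped PRR5 at 1.43 ± 0.796, and ELF4 at 0.169 ± 0.255 RPKM was the lowest. LHY stood above CCA1 in mean RPKM in 7 of the 8 groups, and wild type stamens were the exception.

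**Figure D1:**
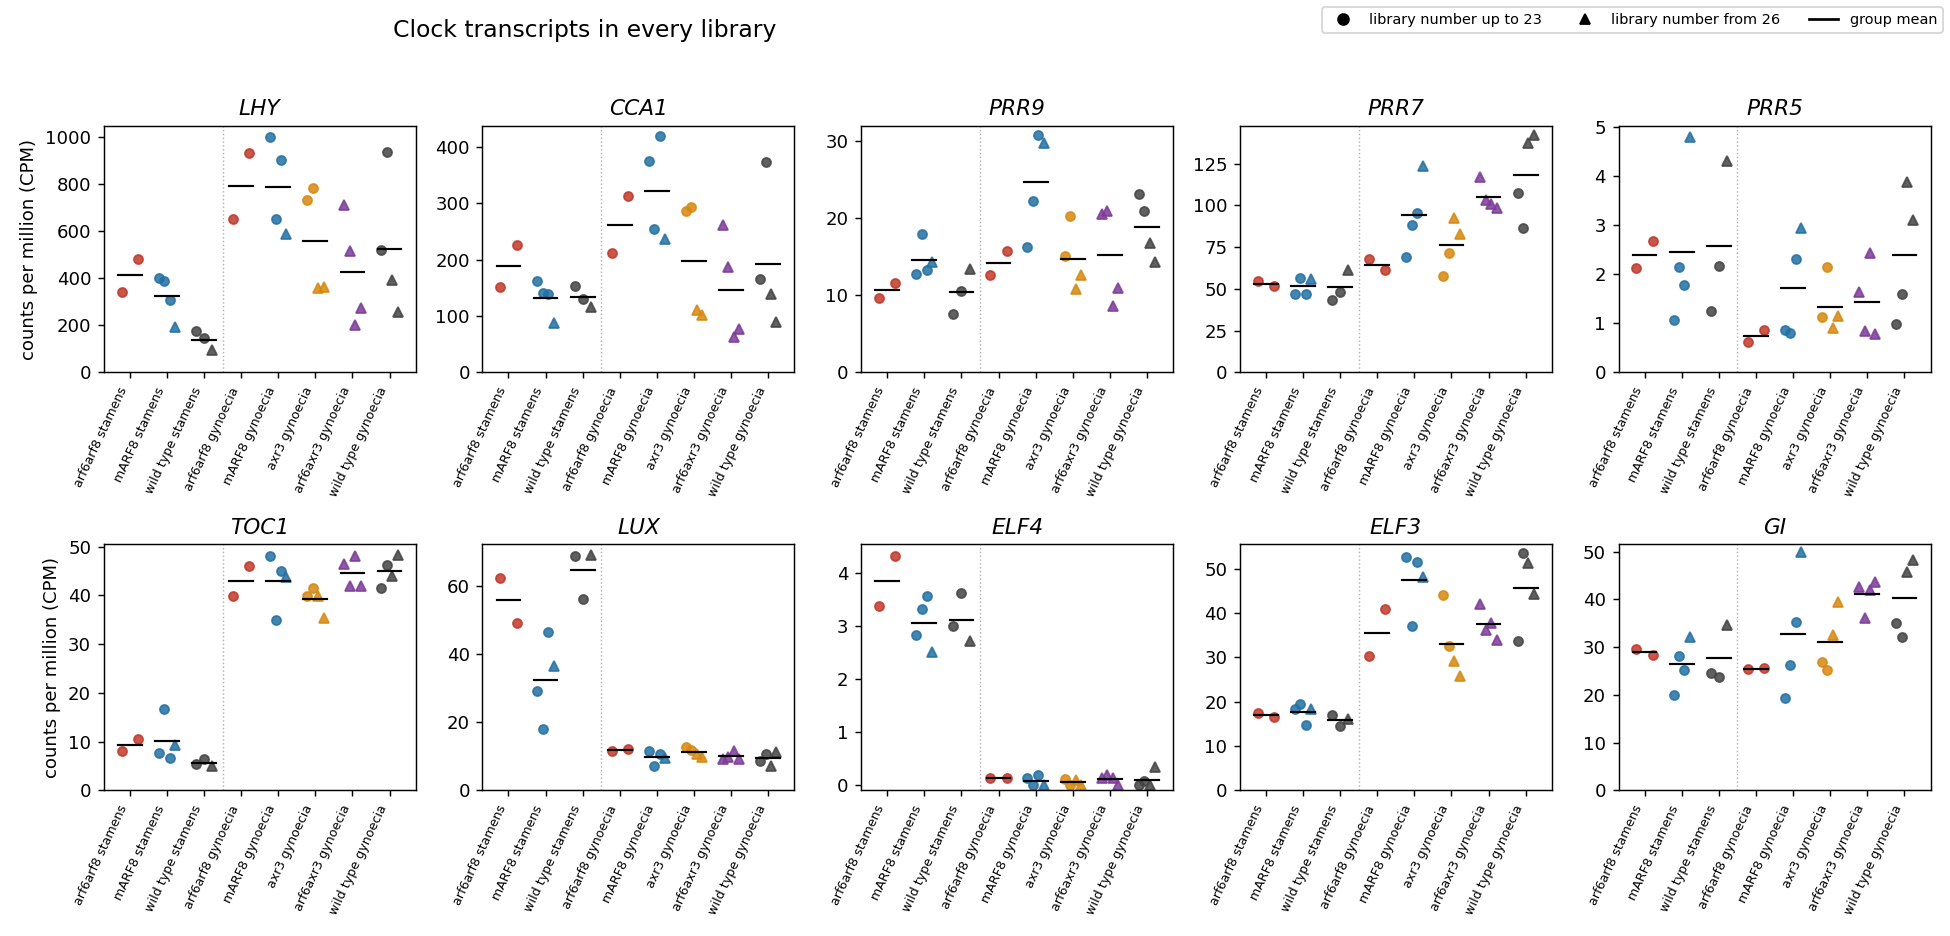
CPM of the 10 clock genes in each of the 27 libraries (vertical, linear), by genotype and organ, with altered genotypes left of wild type; circles are low-numbered and triangles high-numbered libraries, and bars are group means. The labels axr3 and arf6axr3 stand for Pstk_axr3 and arf6 Pstk_axr3. LHY reaches 1001 CPM in mARF8 gynoecia and falls to 93.1 CPM in wild type stamens, LUX is higher in every stamen group than in any gynoecium group, and TOC1 and ELF3 are lower there.

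Between organs, the evening genes moved in opposite directions. In wild type stamens against wild type gynoecia, 6 of the 10 genes passed an adjusted p of 0.05 by edgeR's quasi-likelihood test with Benjamini-Hochberg adjustment, a threshold that 81.0% of all loci passed in this contrast. The groups did not overlap in CPM for 7 of the 10, against 83.3% of loci. LUX and ELF4 were higher in stamens, and TOC1, ELF3, LHY and PRR7 were lower. Organ and flower stage differ together in these groups and cannot be told apart.

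LUX, a GARP-family DNA-binding subunit of the evening complex, had 68.7, 56.1 and 69.1 CPM in wild type stamens, against 8.70, 10.6, 7.12 and 11.1 CPM in wild type gynoecia. Every stamen library was above every gynoecium library. The log2 fold change was 3.45 (SE 0.23, adjusted p = 2.7e-12, edgeR). LUX shares 698 exonic bases with AT3G46650 on the opposite strand, and the strand setting of the counting is not given in the sources used here, so part of its count could belong to that gene.

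ELF4, a small partner protein in the same complex, had 12 to 20 reads per wild type stamen library, or 3.01, 3.63 and 2.72 CPM. In the 18 gynoecium libraries it had at most 3 reads, and 7 of them had 0, a count that allows 0.297 to 0.812 CPM depending on depth. Pooled over libraries, 44 reads in wild type stamens against 4 reads in wild type gynoecia gave a ratio of 29.3 after scaling to library totals (95% exact interval 10.7 to 112, counting error only). The fit over all 27 libraries gave a log2 fold change of 5.34 (SE 0.53, adjusted p = 2.3e-09, edgeR). That size follows TMM scaling, unlike the pooled ratio, and at such low counts it also depends on the prior count. Of those 4 gynoecium reads, 3 came from replicate 4, and without that library the log2 fold change was 6.59 (adjusted p = 9.4e-10, edgeR). ELF4 did not pass the filter on low counts in the gynoecium fit, so 9 of the 10 genes were tested for genotype there.

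TOC1, a pseudo-response regulator that represses the dawn genes at night, was low in stamens. It had 5.51, 6.53 and 4.99 CPM in wild type stamens, against 41.4, 46.4, 44.0 and 48.3 CPM in wild type gynoecia. The log2 fold change was -2.29 (SE 0.20, adjusted p = 2.3e-10, edgeR), and the groups did not overlap. ELF3, the scaffold of the evening complex, had 17.0, 14.5 and 16.1 CPM in wild type stamens, against 33.6, 53.5, 51.3 and 44.3 CPM in wild type gynoecia. Its log2 fold change was -0.84 (SE 0.18, adjusted p = 0.000147, edgeR), again without overlap. ELF3 shares 21 exonic bases with the antisense AT2G08135 and 24 with ALPHA-VPE on the opposite strand.

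LHY and PRR7 were also lower in stamens, by margins that rest on fewer libraries. LHY had a log2 fold change of -1.24 (SE 0.43, adjusted p = 0.0112, edgeR) and PRR7 one of -0.52 (SE 0.18, adjusted p = 0.0103, edgeR). The call for LHY was lost without wild type gynoecium replicate 2 or wild type stamen replicate 3 and among high-numbered libraries alone, and that for PRR7 without wild type stamen replicate 1 or 2. PRR7 was also uncalled under median-of-ratios scaling, at -0.39 (adjusted p = 0.0525). CCA1 (0.16), GI (0.15), PRR9 (-0.16) and PRR5 (0.85) were not called. Fold changes between organs were taken after TMM scaling, and CPM was not so scaled. By mean CPM, CCA1 (133 against 192) and GI (27.7 against 40.3) were lower in wild type stamens than in wild type gynoecia. PRR9 averaged 10.5 against 18.8 CPM without overlap, and over the alternatives its log2 fold change ran from -0.65 to 0.52.

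In stamens, LHY was the dawn gene that ran with genotype. It had 343 and 482 CPM in arf6arf8 stamens and 402, 387, 307 and 195 CPM in mARF8 stamens, against 175, 147 and 93.1 CPM in wild type stamens. Both altered genotypes lay above wild type without overlap, and mARF8 replicate 4, the T1 pool, was the nearest to it. Against wild type, mARF8 stamens had a log2 fold change of 1.06 (SE 0.30, adjusted p = 0.0257, edgeR), which was lost without mARF8 replicate 1 or wild type replicate 2 or 3. The arf6arf8 difference was larger, 1.43 (SE 0.35), with an adjusted p of 0.0537 by edgeR. It was past the threshold by DESeq2 (1.37, adjusted p = 0.00527) and under 6 other alternatives, and not in any of the 5 fits that left out a library (adjusted p 0.0884 to 0.350). Sums of heat shock transcripts and of stamen markers were higher in arf6arf8 stamens too. The 8 heat shock genes summed to 42.4 to 69.9 CPM, against 19.6 to 23.4 CPM in wild type stamens. Of 6 that were tested 0 were called, with 0 at an unadjusted p under 0.05 by edgeR. The 5 stamen markers summed to 1230 to 1235 CPM, against 866 to 972 CPM, and 1 of 4 tested was called, against 4.39% of all loci. The part of these genes in the LHY difference was not tested.

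CCA1, the close paralogue of LHY with which it acts, did not separate the stamen genotypes. It had 152 and 227 CPM in arf6arf8 stamens and 162, 141, 138 and 86.8 CPM in mARF8 stamens, against 154, 130 and 116 CPM in wild type stamens. The log2 fold changes were 0.36 (SE 0.28, adjusted p = 0.519) in arf6arf8 and -0.17 (SE 0.24, adjusted p = 0.594) in mARF8 stamens, both by edgeR.

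The ratio of LHY to CCA1 reads within a library needs no scaling between libraries, and it set wild type stamens apart. It was 2.26 and 2.13 in arf6arf8 stamens and 2.49, 2.73, 2.22 and 2.24 in mARF8 stamens, against 1.14, 1.13 and 0.804 in wild type stamens. In gynoecia it lay between 2.16 and 3.60 in all 18 libraries, with 2.51 to 3.13 in wild type. The 3 wild type stamen libraries were thus below the other 24 libraries. The ratio was chosen after seeing the data and was not tested. How reads that match both paralogues were treated is not given in the sources used here.

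**Figure D2:**
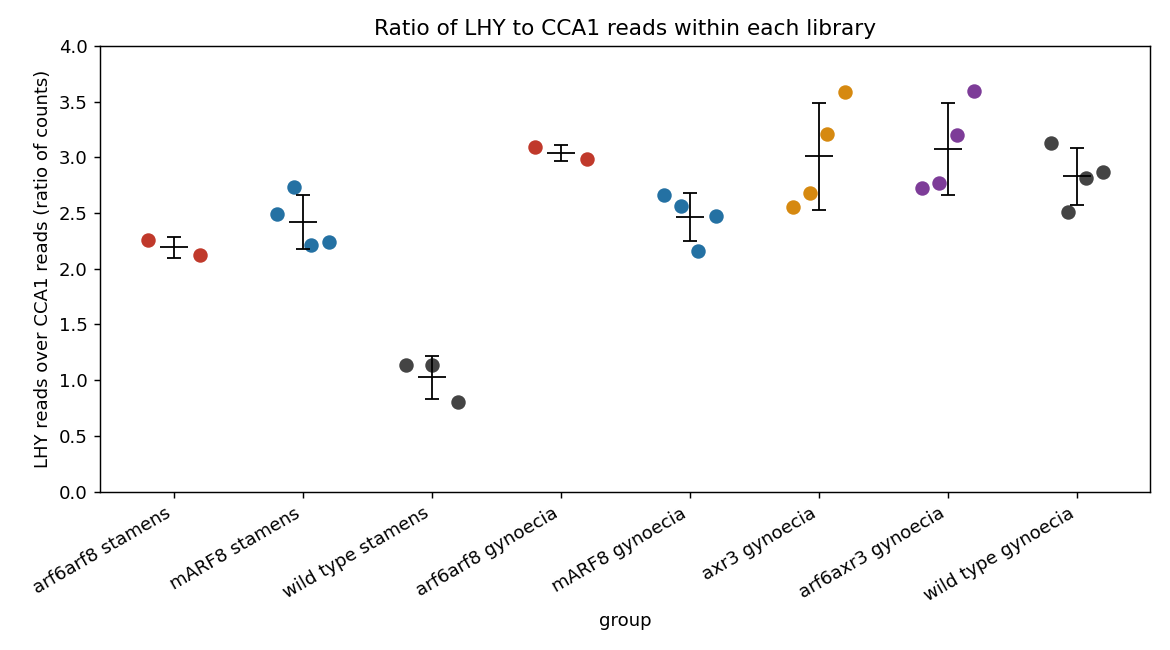
Ratio of LHY to CCA1 reads in each library, by genotype and tissue, with altered genotypes left of wild type; points are libraries, and bars are group means with SD. The wild type stamens lie at 0.804 to 1.14, and the lowest of the other libraries is at 2.13.

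In gynoecia, LHY and CCA1 spread widely inside each genotype. LHY had 653 and 932 CPM in arf6arf8, 1001, 652, 904 and 587 CPM in mARF8, 732, 785, 357 and 362 CPM in Pstk_axr3, and 712, 516, 201 and 275 CPM in arf6 Pstk_axr3 gynoecia, against 520, 935, 391 and 258 CPM in wild type gynoecia. CCA1 had 211 and 312 CPM in arf6arf8, 375, 255, 419 and 237 CPM in mARF8, 286, 293, 111 and 101 CPM in Pstk_axr3, and 261, 186, 62.6 and 76.5 CPM in arf6 Pstk_axr3, against 166, 373, 139 and 90.0 CPM in wild type. The highest wild type library had 3.63 times the LHY and 4.15 times the CCA1 of the lowest, and the 5 genotypes overlapped. None of the 4 altered genotypes was called for either gene, with log2 fold changes between -0.30 and 0.63 for LHY and between -0.39 and 0.75 for CCA1.

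Of the day-phased pseudo-response regulators, PRR7 was nearly level across the stamen genotypes. Within groups PRR9 and PRR5 spread more, with an SD of 0.27 and 0.71 log2 CPM against 0.16 for PRR7. PRR7 had 54.5 and 51.4 CPM in arf6arf8 stamens and 47.1, 56.8, 47.2 and 55.6 CPM in mARF8 stamens, against 43.6, 47.9 and 61.2 CPM in wild type stamens. PRR9, the first of the series after dawn, had 9.67 and 11.6 CPM in arf6arf8 and 12.7 to 17.9 CPM in mARF8 stamens, against 7.52 to 13.4 CPM in wild type stamens. PRR5, the latest of the 3, had 2.12 and 2.68 CPM in arf6arf8 and 1.06 to 4.81 CPM in mARF8 stamens, against 1.25 to 4.31 CPM in wild type stamens. In all 3 genes both altered genotypes overlapped wild type and none was called against it. PRR9 in arf6arf8 stamens lay below PRR9 in mARF8 stamens, a pair that was not tested.

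PRR7 was the only clock gene called against wild type in gynoecia, in arf6arf8 and in Pstk_axr3. That is 1 of 9 genes in each, against 11.2% and 15.7% of all loci. It had 67.8 and 61.2 CPM in arf6arf8, 69.0, 88.0, 95.5 and 124 CPM in mARF8, 57.9, 71.3, 92.3 and 82.7 CPM in Pstk_axr3, and 117, 103, 101 and 98.5 CPM in arf6 Pstk_axr3 gynoecia, against 107, 86.5, 137 and 142 CPM in wild type gynoecia. The arf6arf8 libraries lay below all wild type libraries, while Pstk_axr3 overlapped wild type through its replicate 3. In arf6arf8 the log2 fold change was -0.83 (SE 0.21, adjusted p = 0.0133, edgeR). In Pstk_axr3 it was -0.59 (SE 0.17, adjusted p = 0.0208, edgeR). The first call was lost without either arf6arf8 library (adjusted p = 0.0785 and 0.155). The second was lost without Pstk_axr3 replicate 1 or 2 or wild type replicate 3 or 4, and neither held among the low-numbered libraries alone, at -0.56 for both (adjusted p = 0.0669 in arf6arf8 and 0.0858 in Pstk_axr3). Both arf6arf8 libraries are low-numbered, and PRR7 was higher in high-numbered gynoecium libraries (log2 difference 0.49). Genotype and library number thus cannot be fully told apart in the arf6arf8 comparison. Tissue markers moved with both comparisons. The 5 stamen markers summed to 33.0 to 34.1 CPM in arf6arf8 gynoecia, against 10.0 to 18.0 CPM in wild type gynoecia, and the 5 gynoecium markers to 224 to 289 CPM in Pstk_axr3, against 387 to 424 CPM in wild type. Neither range overlapped wild type, and the part of the markers in the PRR7 differences was not tested.

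PRR9 in gynoecia had 12.6 and 15.7 CPM in arf6arf8, 16.2 to 30.8 CPM in mARF8, 10.8 to 20.3 CPM in Pstk_axr3 and 8.55 to 20.9 CPM in arf6 Pstk_axr3, against 14.4 to 23.1 CPM in wild type. PRR5 was near the limit of detection, with 0.617 and 0.866 CPM in arf6arf8 gynoecia and 0.791 to 2.94 CPM in the other 3 altered genotypes, against 0.989 to 3.89 CPM in wild type. The arf6arf8 libraries of PRR5 lay below all wild type libraries, at a log2 fold change of -1.58 (SE 0.60, adjusted p = 0.101, edgeR). Neither gene was called in any genotype.

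Among the evening genes, LUX was lower in mARF8 stamens. It had 62.2 and 49.3 CPM in arf6arf8 stamens and 29.0, 18.1, 46.6 and 36.4 CPM in mARF8 stamens, against 68.7, 56.1 and 69.1 CPM in wild type stamens. All 4 mARF8 libraries lay below wild type, and the line 4B library was the lowest. The log2 fold change in mARF8 was -1.13 (SE 0.30, adjusted p = 0.0200, edgeR), and in arf6arf8 it was -0.36 (SE 0.35, adjusted p = 0.612). The mARF8 call was lost without mARF8 replicate 1 or wild type replicate 1 or 3, and among the low-numbered libraries alone (-1.09, adjusted p = 0.117).

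Sums of heat shock transcripts and of tissue markers moved with this comparison. Of 6 heat shock genes tested 1 was called, and of 4 stamen markers 2, against 37.0% of all loci. The 8 heat shock genes summed to 27.6 to 295 CPM in mARF8 stamens, highest in replicate 2, against 19.6 to 23.4 CPM in wild type stamens. Without that replicate LUX was at -0.94 (adjusted p = 0.0101, edgeR). The 5 stamen markers summed to 1101 to 1530 CPM in mARF8 stamens, against 866 to 972 CPM in wild type stamens, and the 5 gynoecium markers to 11.1 to 15.8 CPM against 19.5 to 20.5 CPM. The part of the markers in the differences of LHY and LUX was not tested.

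The effect of mARF8 on LUX differed between organs. LUX in gynoecia had 11.5, 7.31, 10.8 and 9.41 CPM in mARF8, against 8.70, 10.6, 7.12 and 11.1 CPM in wild type. The interaction term, the mARF8 log2 fold change in stamens minus that in gynoecia, was -1.25 (adjusted p = 0.00796, edgeR). It was the only one of the 10 genes called in that test, which called 25.8% of loci. For arf6arf8 the same test called 0 of the 10 genes, against 6.65% of loci, with 1 at an unadjusted p under 0.05.

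TOC1, ELF4, ELF3 and GI were not called for genotype in stamens. TOC1 had 8.02 and 10.6 CPM in arf6arf8 stamens and 7.61, 16.8, 6.63 and 9.24 CPM in mARF8 stamens, against 5.51, 6.53 and 4.99 CPM in wild type stamens. Neither altered genotype overlapped wild type, yet the log2 fold changes of 0.56 (adjusted p = 0.412) and 0.62 (adjusted p = 0.135) did not pass by edgeR. ELF4 had 3.38 and 4.32 CPM in arf6arf8 and 2.50 to 3.56 CPM in mARF8 stamens, against 2.72 to 3.63 CPM in wild type stamens. ELF3 held within 16.5 to 17.5 CPM in arf6arf8 and 14.8 to 19.5 CPM in mARF8 stamens, against 14.5 to 17.0 CPM in wild type stamens. GI had 29.7 and 28.4 CPM in arf6arf8 and 20.0 to 32.1 CPM in mARF8 stamens, against 23.8 to 34.7 CPM in wild type stamens.

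In gynoecia, GI had 25.4 and 25.6 CPM in arf6arf8, 19.4, 26.3, 35.2 and 50.0 CPM in mARF8, 26.8, 25.2, 32.5 and 39.5 CPM in Pstk_axr3, and 42.7, 36.2, 41.9 and 43.6 CPM in arf6 Pstk_axr3, against 35.0, 32.1, 45.8 and 48.2 CPM in wild type. The arf6arf8 libraries were below all wild type libraries, at a log2 fold change of -0.61 (SE 0.25, adjusted p = 0.123, edgeR). ELF3 had 30.3 and 40.9 CPM in arf6arf8, 37.1 to 52.6 CPM in mARF8, 25.9 to 44.1 CPM in Pstk_axr3 and 33.9 to 42.1 CPM in arf6 Pstk_axr3, against 33.6 to 53.5 CPM in wild type. Its change in Pstk_axr3 was -0.42 (SE 0.16, adjusted p = 0.0827, edgeR). TOC1 had the smallest within-group SD of the 9 genes tested there and lay between 34.9 and 48.3 CPM in all 18 libraries, and no genotype was called for TOC1, LUX, ELF3 or GI.

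Counts of called clock genes are given beside the share of all loci called in the same comparison. In mARF8 stamens 2 of the 10 passed against 37.0% of loci, and 3 did not overlap wild type against 47.8%. In arf6arf8 stamens 0 passed against 4.39%, with 1 at an unadjusted p under 0.05 by edgeR and 1 called by DESeq2, and 2 did not overlap against 57.3%. In arf6arf8 gynoecia 1 of 9 passed against 11.2%, and 4 did not overlap (PRR7, PRR5, GI and LUX) against 38.9%.

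The remaining gynoecium genotypes gave 1 call. In Pstk_axr3 gynoecia 1 of 9 passed against 15.7%, and 0 were free of overlap with wild type against 19.1%. In mARF8 gynoecia 0 of 9 passed against 0.688%, with 0 at an unadjusted p under 0.05, and 0 were free of overlap against 7.10%. In arf6 Pstk_axr3 gynoecia 0 of 9 passed against 1.72%, again with 0 at an unadjusted p under 0.05, and 0 were free of overlap against 7.94%. A test of any genotype difference called LHY (adjusted p = 0.0262) and LUX (0.0405) in stamens, against 34.4% of loci, and PRR7 (0.0170) in gynoecia, against 26.6%. Leaving out 1 library lost LUX in 7 of 9 fits, all but those without mARF8 replicate 2 or 3 (adjusted p 0.0601 to 0.107 where lost). LHY was lost in 4 of 9, without wild type replicate 2 or 3 or either arf6arf8 library, and PRR7 without arf6arf8 replicate 2 (adjusted p = 0.0654). These comparisons share their wild type libraries within each organ.

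More of the spread of most clock genes lay inside genotypes than between them, which in gynoecia was near what all loci showed. The share of the variance of log2 CPM that lay between genotypes had a median of 34.0% over the 10 genes in stamens, against 59.2% over all loci fitted, and of 35.1% over 9 genes in gynoecia, against 40.4%. LHY (70.0%) and LUX (66.6%) were above that median in stamens, and PRR7 (58.3%) and ELF3 (45.9%) in gynoecia. With few libraries in each group such shares are high by construction for any locus, which is why the value over all loci stands beside them.

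Within genotypes the dawn genes varied more than nearly all loci of like abundance in gynoecia. The within-group SD of CCA1 was 0.77 and that of LHY 0.65 on the log2 CPM scale, at the 99.6th and 99.5th percentile of loci within 0.5 log2 CPM of their level, where the median SD was 0.098 for CCA1 and 0.10 for LHY. PRR9 stood at the 97.7th, GI at the 97.1st, PRR7 at the 95.6th and ELF3 at the 93.5th percentile. PRR5 (84.2), LUX (58.1) and TOC1 (52.2) were closer to the middle. In stamens no clock gene was past the 95th percentile, LUX was highest at 91.7 (SD 0.48), LHY stood at 87.9 (SD 0.46), and ELF3 (9.02) and ELF4 (6.79) were among the steady loci.

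**Figure D3:**
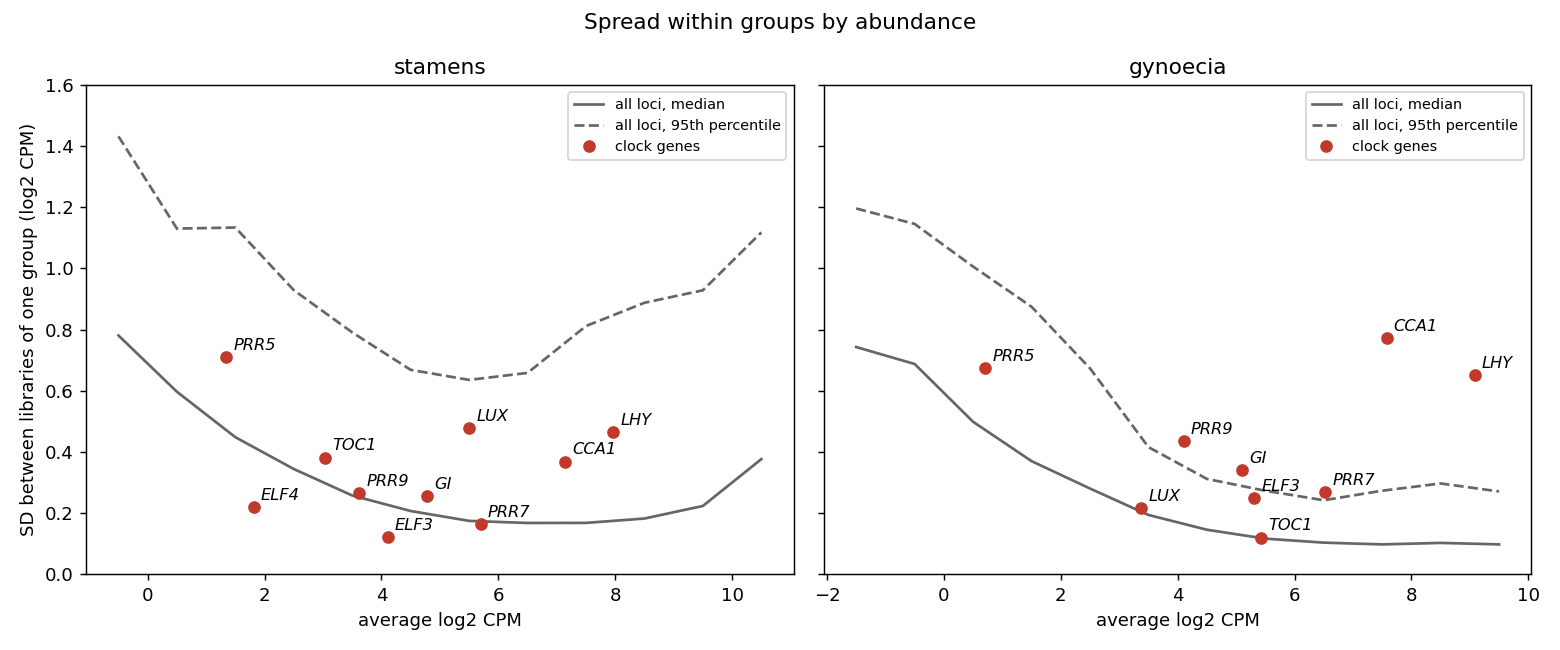
Within-group SD of log2 CPM (vertical) against average log2 CPM (horizontal) for each clock gene, in stamens (left) and gynoecia (right); lines give the median and the 95th percentile of all loci by abundance. In gynoecia CCA1 (SD 0.77) and LHY (SD 0.65) stand far above the upper line, while TOC1 lies on the median.

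The spread inside genotypes was shared between some of the clock genes. Each library's deviation from the mean of its own genotype and organ was taken on the log2 CPM scale, and the 45 pairs of genes were correlated over the 27 libraries, with a two-sided permutation test of values within groups. After Benjamini-Hochberg adjustment over the 45 pairs, 7 passed. For comparison, the 95th percentile of absolute r with the 20664 other loci was 0.550 for LHY, 0.545 for CCA1, 0.480 for PRR7, 0.496 for PRR5 and 0.497 for GI. LHY and CCA1 deviated together, at Pearson r = 0.97 (permutation test, adjusted p = 0.00045, the smallest the draws allow) and Spearman rho = 0.95 (adjusted p = 0.00045). Without the 2 libraries farthest from the median of LHY r was 0.96, and it was 0.91 in stamens, 0.99 in gynoecia, 0.95 among low-numbered and 0.99 among high-numbered libraries.

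PRR7 and GI, which are both day-phased, also deviated together, at r = 0.84 (permutation test, adjusted p = 0.0018) and rho = 0.84. Without the 2 libraries farthest from the median of PRR7, r was 0.80. The value was 0.86 in stamens and 0.83 in gynoecia. It was 0.70 among low-numbered libraries and -0.26 among the 8 high-numbered libraries that share a group with another, so the relation did not hold inside the high-numbered set. PRR5 and GI gave r = 0.63 (adjusted p = 0.0437) and rho = 0.61 (adjusted p = 0.0584), with 0.54 among low-numbered and 0.33 among high-numbered libraries.

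The dawn pair and the day pair deviated in opposite directions. LHY and GI gave r = -0.64 (permutation test, adjusted p = 0.00435, rho = -0.72) and LHY and PRR7 r = -0.63 (adjusted p = 0.0153, rho = -0.63). CCA1 and GI gave r = -0.56 (adjusted p = 0.0153, rho = -0.64) and CCA1 and PRR7 r = -0.56 (adjusted p = 0.0438, rho = -0.56). In size both CCA1 values were only just past the 95th percentile of CCA1 with all loci, 0.545. Leaving out the 2 libraries farthest from the median of the dawn gene of each pair, LHY or CCA1, moved the r of these 4 pairs to between -0.66 and -0.58. Inside the library sets the values differed. LHY and GI had -0.37 among low-numbered and -0.33 among high-numbered libraries, CCA1 and GI -0.16 and -0.41, LHY and PRR7 -0.68 and 0.57, and CCA1 and PRR7 -0.59 and 0.63. No pair passed the adjustment within either set alone.

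**Figure D4:**
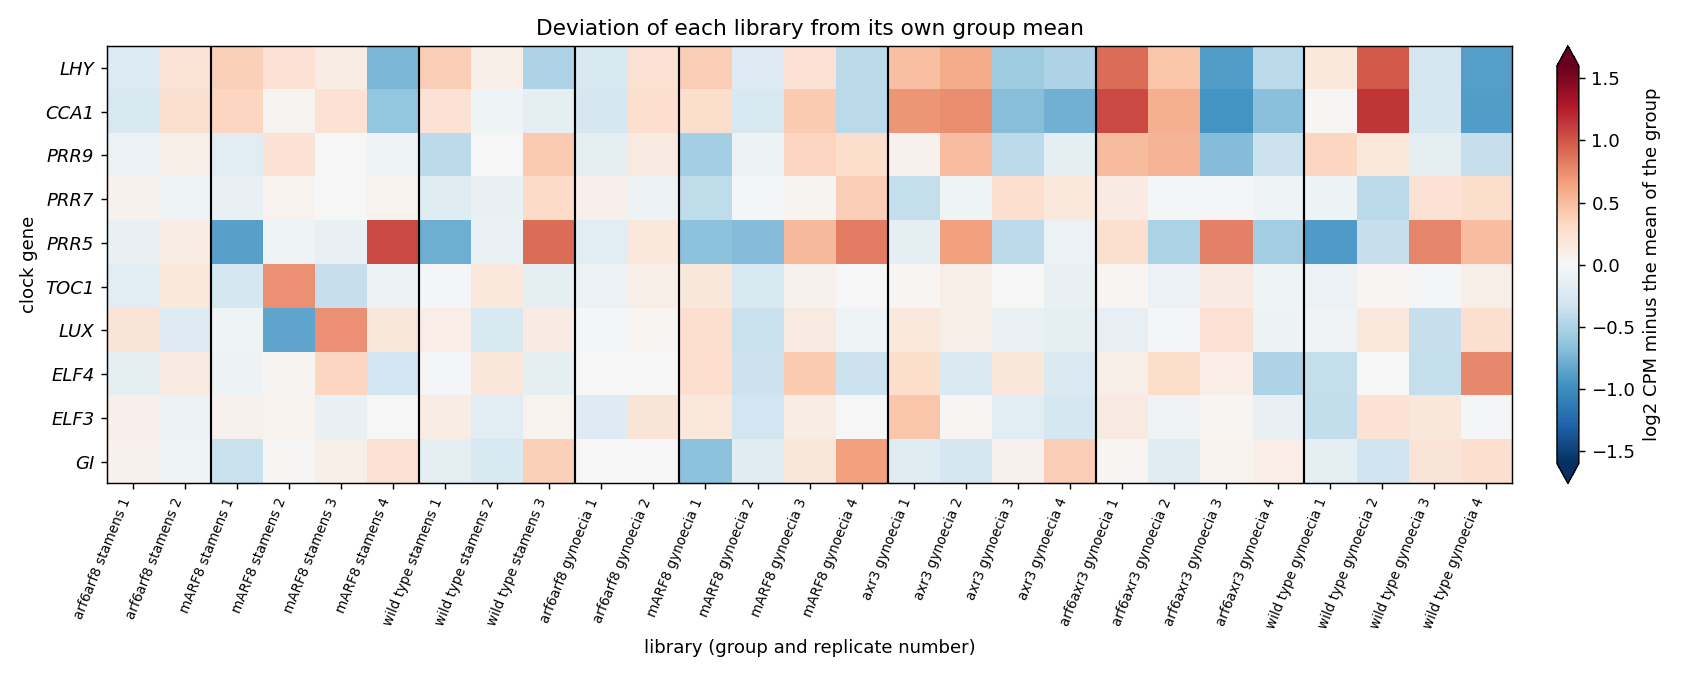
Deviation of each clock gene in each library from the mean of its own genotype and organ, in log2 CPM (colour), in columns by group and replicate, with altered genotypes left of wild type. LHY and CCA1 share their sign in nearly every column, and PRR7 and GI tend to carry the opposite one.

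The shared deviation ran with the library number, which in some groups goes together with the plant line. The high-numbered library of mARF8 stamens is the T1 pool, and those of Pstk_axr3 are line 15-5 and the F1, while the low-numbered ones of Pstk_axr3 have no line in their titles. In these groups library number and line cannot be told apart. In mARF8 gynoecia the high-numbered library is the one whose title names no line, though its source name gives 3B like the others, and wild type stamens and gynoecia hold both kinds of library with no line named. In the 5 groups that hold both kinds of library (Pstk_axr3 has 2 of each), every high-numbered library was below every low-numbered one for LHY and for CCA1, and above it for GI. PRR7 and PRR5 were above in 4 of the 5 groups. TOC1, LUX, ELF4 and ELF3 gave no such order. TOC1 and ELF4 were each below in 2, LUX was below in 1 and above in 1, and ELF3 was below in 1. PRR9 was below in 2 and above in 1. In mARF8 gynoecia, mARF8 stamens and wild type stamens only 1 library is high-numbered, so a full separation arises easily there. The share of all loci with such an order was not computed, so these counts have no background beside them.

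A term for high-numbered against low-numbered libraries, with genotype as the other term, was tested over all loci. In gynoecia 4 of 9 clock genes passed, against 3.36% of loci, a test chosen after this division had been seen in the clock genes. The log2 difference, high-numbered minus low-numbered, was -0.97 for LHY (SE 0.25, adjusted p = 0.0424, edgeR) and -1.13 for CCA1 (SE 0.30, adjusted p = 0.0491, edgeR). It was 0.49 for PRR7 (SE 0.08, adjusted p = 0.00450, edgeR) and 0.57 for GI (SE 0.11, adjusted p = 0.00981, edgeR). LHY and CCA1 were each lost in 10 of 12 fits that left out a library and held only without wild type replicate 1 or mARF8 replicate 2, and GI was lost without mARF8 replicate 4.

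Over all 27 libraries the same 4 of 10 genes passed, against 2.31% of loci. LHY was at -0.94 (SE 0.19, adjusted p = 0.00910), CCA1 at -0.94 (SE 0.24, adjusted p = 0.0377), PRR7 at 0.42 (SE 0.07, adjusted p = 0.00241) and GI at 0.53 (SE 0.09, adjusted p = 0.00250), all by edgeR. PRR5 was at 0.95 (SE 0.29, adjusted p = 0.0929). CCA1 was lost in 11 of 19 fits that left out a library, while LHY, PRR7 and GI held in all 19. The heat shock factor gene HSFA2, 1 of 8 listed heat shock genes and named after its values were seen, moved with the same division. It was at -3.42 in gynoecia (adjusted p = 0.00450) and -3.61 over all libraries (adjusted p = 0.0176), both by edgeR. The mean log2 CPM of 7 heat shock genes was lower in high-numbered than in all low-numbered libraries of wild type, mARF8 and Pstk_axr3 gynoecia and wild type stamens. In mARF8 stamens it was 1.88 in the high-numbered library, within the 0.80 to 4.07 of the others. The part of these genes in the differences was not tested. The library number is no time of day, and whether the 2 sets were collected at different hours within the window cannot be told from the labels.

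A difference between morning and evening genes describes each library by 1 value. GI, which peaks in the afternoon, is counted here with the evening genes. The value is the mean log2 CPM of LHY and CCA1 minus that of TOC1, LUX, ELF4, ELF3 and GI, and a higher value means relatively more dawn transcript. In stamens it was 3.86 and 4.34 in arf6arf8 and 4.40, 4.03, 3.93 and 3.21 in mARF8, against 3.56, 3.32 and 2.87 in wild type. The 2 lowest stamen libraries were wild type replicate 3 and mARF8 replicate 4, the only high-numbered ones.

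In gynoecia the value was 5.10 and 5.50 in arf6arf8, 5.68, 5.45, 5.52 and 4.92 in mARF8, 5.27, 5.55, 4.20 and 4.27 in Pstk_axr3, and 5.09, 4.68, 3.11 and 3.73 in arf6 Pstk_axr3, against 4.83, 5.55, 4.33 and 3.36 in wild type. High-numbered libraries were below low-numbered ones in 5 of 5 groups that hold both, also when ELF4 was left out. LHY and CCA1 were each below and GI above in the same 5 groups, so this order repeats theirs and is no separate evidence. The lowest library, arf6 Pstk_axr3 replicate 3, differs from the highest of its own genotype by more than any 2 group means of gynoecia differ. PRR9 relative to the dawn pair (PRR9 minus their mean) was higher in the high-numbered libraries in 4 of 5 groups. That value subtracts LHY and CCA1, while PRR9 itself was below in 2 groups and above in 1. Hence it is no separate evidence either. All arf6arf8 libraries are low-numbered and all arf6 Pstk_axr3 libraries are high-numbered, so for these genotypes the 2 divisions cannot be told apart.

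**Figure D5:**
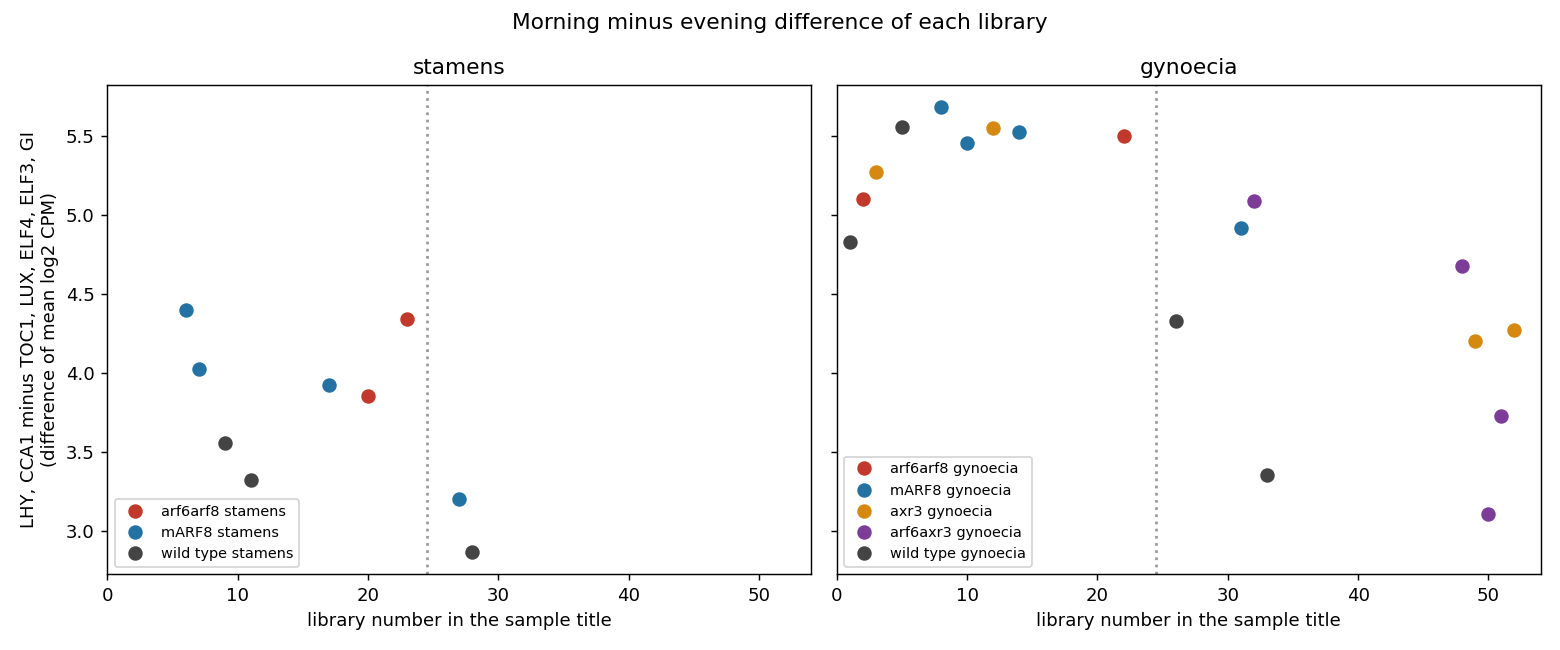
Mean log2 CPM of LHY and CCA1 minus that of TOC1, LUX, ELF4, ELF3 and GI (vertical) against the library number in the sample title (horizontal), in stamens and gynoecia; colours are groups and the dotted line divides low-numbered from high-numbered libraries. In wild type gynoecia the high-numbered libraries lie at 3.36 to 4.33 and the low-numbered at 4.83 to 5.55.

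Other genes that followed the dawn pair were found by correlating each locus with the mean deviation of LHY and CCA1 over the 27 libraries, among the 17135 loci whose log2 CPM averaged 1 or more. The 5 closest were AT3G12320 (LNK3, a coactivator working with RVE8), COL2 (a CONSTANS-like zinc finger gene), RVE8 (a dawn MYB factor that activates evening genes), SPA3 (a partner of the COP1 ubiquitin ligase) and SEP2 (AT2G21970, a stress enhanced protein). Their r values were 0.96, 0.96, 0.95, 0.92 and 0.91. The 5 most opposed were GRP8 (AT4G39260, a clock-controlled RNA-binding protein), APC1 (a mitochondrial ATP and phosphate carrier), BAT1 (an amino acid transporter), AMY3 (a chloroplast alpha-amylase) and AT5G41670. Their r values were -0.88, -0.88, -0.87, -0.85 and -0.85. In all, 59 loci had r of at least 0.8 and 15 had -0.8 or lower, and these values share libraries and depth and carry no test.

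Further clock genes and clock outputs were compared as lists. In mARF8 stamens 5 of 27 other clock genes passed, 1 higher and 4 lower. That is 18.5% of the list against 37.0% of all loci, and their median log2 fold change was 0.14 against 0.087 for all loci. ELF4-L2, a relative of ELF4, fell by 1.13 on the log2 scale (SE 0.23, adjusted p = 0.00847, edgeR), with 9.38, 10.3, 17.5 and 13.5 CPM in mARF8, against 24.6, 23.0 and 28.3 CPM in wild type stamens. ZTL, an F-box photoreceptor that removes TOC1 protein, fell by 0.45 (SE 0.10, adjusted p = 0.0117, edgeR). BOA, the close relative of LUX, also fell, with 73.1, 27.9, 109 and 69.5 CPM in mARF8, against 161, 143 and 165 CPM in wild type stamens (log2 fold change -1.29, adjusted p = 0.0281, edgeR). BOA is named because of its likeness to LUX, after its values were seen, and how reads matching both were treated is not given in the sources used here.

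Of 16 clock outputs tested in mARF8 stamens, 6 passed, 4 higher and 2 lower, with a median of 0.078. That is 37.5% of the list, about the 37.0% of all loci. PIF5, a growth-promoting bHLH factor repressed by the clock at night, rose by 1.91 (SE 0.39, adjusted p = 0.00832, edgeR), and CAT3, a catalase that peaks in the evening, fell by 1.18 (SE 0.27, adjusted p = 0.0130, edgeR). PIF5 had 11.2, 24.8, 8.71 and 11.7 CPM in mARF8 stamens, against 3.26, 3.99 and 2.49 CPM in wild type stamens. In arf6arf8 stamens 0 of 27 other clock genes passed, with 4 at an unadjusted p under 0.05, and 2 of 16 outputs fell (12.5%, against 4.39% of all loci), PIF5 (-3.65, adjusted p = 0.0168) and its relative PIF4 (-3.12, adjusted p = 0.0190, edgeR). The effect of mARF8 differed between organs for 4 of 27 other clock genes (14.8%, against 25.8% of all loci), 1 with a higher and 3 with a lower log2 fold change in stamens, led by ZTL (-0.61, adjusted p = 0.000712) and ELF4-L2 (-1.16, adjusted p = 0.00179).

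In gynoecia the comparisons with wild type called at most 2 genes of either list. Of 25 other clock genes tested, 2 fell in arf6arf8 (ZTL and ELF4-L2, against 11.2% of all loci) and 0 passed in mARF8, Pstk_axr3 or arf6 Pstk_axr3, where 2, 6 and 1 had an unadjusted p under 0.05 by edgeR. Of 15 outputs, 2 fell in arf6arf8 (CDF3 and PIF4), 1 fell in Pstk_axr3 (CDF3) and 0 passed in the other 2 genotypes. A test of any genotype difference passed for 6 of the 25, led by ZTL (adjusted p = 0.00936) and LKP2 (0.0121), and for 3 of the 15, led by CDF3 (0.000673) and PIF4 (0.0245). These are 24% and 20% of the lists, against 26.6% of all loci. In stamens it passed for 3 of 27, led by ELF4-L2 and ZTL, and for 6 of 16, led by PIF5 (0.00074) and PIF4 (0.00677), or 11.1% and 37.5% of the lists against 34.4% of all loci.

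Between organs, 16 of 27 other clock genes passed in wild type, 9 higher and 7 lower in stamens, against the 81.0% of all loci. BOA had a mean of 156 ± 11.4 CPM in wild type stamens (SD, n = 3), against 2.49 ± 0.615 CPM in wild type gynoecia (n = 4), and ELF4-L3 had 18.8 ± 2.67 CPM against 2.01 ± 0.0743 CPM. The log2 fold change was 6.64 for BOA and 3.89 for ELF4-L3. Of 17 outputs 11 passed, 5 higher and 6 lower, led by AT4G33980 (COR28, log2 fold change 4.89) and BBX19 (-2.52), a B-box protein that had 2.72 ± 0.208 CPM in wild type stamens against 25.2 ± 6.53 CPM in wild type gynoecia.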

How the data were processed

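Read counts per locus were deposited by the authors, 1 file per library; per the submitters' processing notes the tools were TopHat2, HTSeq and edgeR with TAIR10, and their versions, settings and strand are not given in the sources used here. No 2 libraries were identical, and replicates differed by more than sampling noise (chi-square over degrees of freedom 3.09 to 74.1). The clock genes and gene lists were chosen with earlier results of these data known.

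Counts were fitted with edgeR 4.0.16 (R 4.3.3) by the quasi-likelihood test, with TMM scaling and filterByExpr by group (minimum count 10, total 15). Separate fits covered stamens (18828 loci), gynoecia (18616) and all 27 libraries (20665, for organ and interaction terms). The stamen and gynoecium fits were checked on simulated data, and the fit of all 27 libraries was not. P-values were adjusted over all loci by Benjamini-Hochberg, and an adjusted p under 0.05 is a call. CPM is the count scaled to a common library total. Deviations used log2 CPM with a prior count of 2, and pair tests used 1e+05 permutations in Python 3.11.15. Intervals and floors cover counting error only. Outside the 10 genes, the text names the 2 genes with the smallest adjusted p of a list where 3 or more passed, the 5 loci most and least like LHY and CCA1, and ARF8; other names were chosen after their values were seen. DESeq2 1.42.0, other scalings and filters, a prior count of 0.5, a replicate block, library number, library sets and the omission of each library were alternatives; promoters came from RefSeq TAIR10.1. No protein or miRNA sequence was used here.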

Additional observations from a re-analysis of the deposited data

Results flagged for a closer look

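LUX is listed because the effect of mARF8 on it differed between stamens and gynoecia by a test of the difference itself. The mARF8 log2 fold change in stamens minus that in gynoecia was -1.25, with an adjusted p of 0.00796 by edgeR's quasi-likelihood test over 27 libraries. All 4 mARF8 stamen libraries were below all 3 wild type stamen libraries, and the mARF8 and wild type gynoecium libraries overlapped. The 2 organs hold different mARF8 lines. With stamens of line 3B only, the line that the source names give for all mARF8 gynoecia and the titles for replicates 1 to 3, the value was -0.96 (adjusted p = 0.0184, edgeR). It was -1.18 (adjusted p = 0.173) among low-numbered libraries and -1.23 (adjusted p = 0.0539) among high-numbered libraries, where 3 of the 4 groups hold 1 library. Of 60 tests for a library far from the other 3 of its group, 0 found one.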

How the results depend on the processing

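Of 2452 values of single clock genes under alternatives, 2355 kept their direction and side of the threshold, 72 lost the call, 25 gained it and 0 called values turned. In arf6arf8 stamens 1 gene in place of 0 was called, LHY, under upper-quartile scaling, DESeq2, no filter, the replicate block (1.30, adjusted p = 0.0461), library number as covariate, the library set term (chosen after seeing the data) and a fit of only the groups compared. Any genotype difference in stamens called 1 in place of 2 with library number, the library set term or low-numbered libraries only, and mARF8 stamens 1 in place of 2 in low-numbered libraries. Any genotype difference in gynoecia called 4 in place of 1 with the replicate block, adding LHY, CCA1 and GI. Pstk_axr3 called 2 in place of 1 with library number or in high-numbered libraries, and 0 in low-numbered libraries or only the groups compared. The arf6arf8 gynoecia called 0 in place of 1 in low-numbered libraries and 2 in only the groups compared. The mARF8 interaction called 0 in place of 1 in either library set, and the arf6arf8 interaction 1 in place of 0 with the library set term (PRR7). The causes were not tested, beyond fewer libraries in a set.

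Leaving out 1 library each gave 0 to 2 called genes in mARF8 stamens, in any genotype difference in stamens and in gynoecia, in arf6arf8 gynoecia and in Pstk_axr3 gynoecia, 5 to 6 between organs, 1 to 2 in the mARF8 interaction, 1 to 4 for the library sets in gynoecia and 3 to 4 in all libraries. Genes above the median share between genotypes numbered 1 to 3 in stamens and 1 to 5 in gynoecia. Of 7 correlated pairs, 0 passed in stamens, 4 in gynoecia and 0 in either library set. TOC1 and LUX had r = -0.50 over 27 libraries and 0.77 in gynoecia (adjusted p = 0.0216, permutation test); the high-numbered libraries turned LHY and PRR7 to 0.57, CCA1 and PRR7 to 0.63, and PRR7 and GI to -0.26. In mARF8 stamens the median log2 fold change of all loci was 0.087, under every call made there.

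Whether replicate numbers pair the libraries is not given by the labels. In stamens, same-numbered libraries of different groups had deviations correlated at -0.12 to 0.30 (median 0.17). Differently numbered ones had -0.28 to 0.25 (median -0.017). In gynoecia the values were -0.28 to 0.33 (median 0.030) and -0.41 to 0.39 (median -0.0086). The replicate block changed 4 of 105 values of single genes, all gaining a call. High-numbered libraries alone could not be fitted for the arf6arf8 comparisons, mARF8 stamens or either test of any genotype difference, nor low-numbered ones for arf6 Pstk_axr3 or any genotype difference in gynoecia. Depth limits PRR5 and ELF4, at low counts in gynoecia. A group left with 1 library was assumed to vary like the other groups.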

Other observations

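Other genes of the dawn MYB and coactivator families varied widely in how closely they followed LHY and CCA1 from library to library within genotype. The correlation with the mean deviation of LHY and CCA1 over 27 libraries was 0.95 for RVE8, 0.88 for RVE4, 0.81 for RVE1 and 0.78 for RVE2. It was 0.65 for RVE3, 0.61 for RVE5 (AT4G01280), 0.47 for RVE7 and 0.43 for RVE6 (AT5G52660). All are MYB relatives of the dawn pair. Among the LNK genes, which encode night-light-inducible coactivators, it was 0.96 for LNK3, 0.86 for LNK2, 0.84 for LNK4 and 0.78 for LNK1. The B-box genes BBX19 and BBX18 had 0.87 and 0.80. Elsewhere on the clock and output lists the values ran from 0.96 for COL2 down to -0.42 for LWD2 and -0.88 for GRP8. The genes were grouped after their values were seen, and the values carry no test.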
